A study of Drosophila melanogaster with 8 samples.

Results

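Transcripts of 65 testis and spermatogenesis genes were measured in whole pupae of the fruit fly Drosophila melanogaster. The members were chosen by name from the 13918 genes of the deposited table, as the male-specific Mst genes, the sperm leucyl aminopeptidases (S-Lap), Y-linked fertility genes, meiotic arrest genes, sperm structural genes and genes transcribed after meiosis. The rule used gene names and not measured values. Wild-type Canton-S pupae that developed at 3 g, that is, in hypergravity, were compared with control pupae kept at 1 g. Both groups were raised at the same temperature and collected at stage P6, an early pupal stage, and each had 4 libraries of polyadenylated RNA, each from a pool of 4 whole pupae. The labels used here give neither the sex of the pupae nor the number of males in a pool. Whether the pools of a group came from separate cultures is not stated, and the p-values below reflect only how far pools differ.

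In the fly testis, germ cells pass through a long spermatocyte stage in which most genes needed later are transcribed, then divide by meiosis and elongate into sperm. The testis-specific meiotic arrest complex (tMAC) and testis-specific TAF proteins (tTAFs), relatives of subunits of the general factor TFIID, switch on this programme in spermatocytes. Many of its transcripts are stored and translated only in spermatids, which build a flagellum, remodel their mitochondria and replace histones by protamines.

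Levels are given in transcripts per 1000000 (TPM), which are corrected for transcript length, and pools carry the replicate numbers of the labels. Of the 65 members, 61 averaged 1 TPM or more and were tested, and the other 4 were Mst57Da, Mst57Db, Mst57Dc and the Y-linked Mst77Y-4. Together the 65 members held 0.792%, 1.64%, 1.202% and 1.695% of all TPM in control pools 1 to 4. At 3 g they held 1.26%, 0.225%, 1.17% and 1.19% in pools 1 to 4. The lowest pool of all was 3 g pool 2 and the lowest control was pool 1, while control pools 2 and 4 were the highest. In RNA from whole pupae, fewer males or germ cells and less RNA per cell cannot be told apart. Read numbers cannot be had from TPM, which leaves depth and counting error unknown.

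The transcription regulators were present at low levels in every pool. Among the 4 tMAC members, the zinc finger gene topi stood at 4.71, 10.95, 6.9 and 9.6 TPM in control pools 1 to 4 and 8.41, 2.42, 8.18 and 9.35 TPM in 3 g pools 1 to 4. The chromatin protein gene aly stood at 1.55, 4.49, 3.52 and 3.72 TPM in control pools 1 to 4 and 3.24, 1.15, 3.21 and 3.4 TPM in 3 g pools 1 to 4. For tomb, a DNA-binding subunit, the levels were 2.71, 6.27, 4.4 and 3.67 TPM in control pools 1 to 4 and 3.92, 2.25, 4.55 and 6.44 TPM in 3 g pools 1 to 4. Each was lowest in 3 g pool 2 and next lowest in control pool 1, and the groups overlapped for each of them. Cookie monster (comr), the other tMAC member, ranged from 0.53 to 1.93 TPM over the 8 pools.

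The tTAF genes shared this lowest pool. Spermatocyte arrest (sa) was at 5.08, 12.1, 8.33 and 9.71 TPM in control pools 1 to 4 and 9.56, 2.8, 7.91 and 13.1 TPM in 3 g pools 1 to 4. No hitter (nht) was at 4.85, 10.7, 8.26 and 9.03 TPM in control pools 1 to 4 and 8.99, 3.51, 6.67 and 12.4 TPM in 3 g pools 1 to 4. Meiosis I arrest (mia) was at 5.85, 8.33, 6.14 and 6.95 TPM in control pools 1 to 4 and 10.9, 3.88, 7.4 and 8.74 TPM in 3 g pools 1 to 4, and cannonball (can) ranged from 1.72 to 7.07 TPM. Of these 4 genes sa, nht and can were highest in 3 g pool 4 and mia in 3 g pool 1, and each was lowest in 3 g pool 2. The tTAF gene rye was not analysed here.

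Regulators of meiotic entry were more abundant. The RNA-binding protein gene boule (bol) was at 149.9, 251, 191 and 259 TPM in control pools 1 to 4 and 231, 49.4, 192 and 204 TPM in 3 g pools 1 to 4. Its target twine (twe), a Cdc25-type phosphatase of the meiotic divisions, was at 17.7, 31.3, 23.3 and 28.7 TPM in control pools 1 to 4 and 27.8, 6.62, 25.7 and 28.8 TPM in 3 g pools 1 to 4. Both were lowest in 3 g pool 2, at 24.2% and 23.8% of the median of the other 3 g pools.

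Genes of sperm mitochondria and of the sperm body gave some of the highest levels. S-Lap1, one of the leucyl aminopeptidase-like proteins of the paracrystalline material in sperm mitochondria, was at 558, 1155, 848 and 1169.7 TPM in control pools 1 to 4 and 834, 149, 845 and 811 TPM in 3 g pools 1 to 4. S-Lap7 was at 364, 771, 564 and 794 TPM in control pools 1 to 4 and 571, 95.7, 524 and 531 TPM in 3 g pools 1 to 4. The related leucyl aminopeptidase gene loopin-1 was at 394, 838, 628 and 863 TPM in control pools 1 to 4 and 624, 92.8, 581 and 601 TPM in 3 g pools 1 to 4. In all 3 the lowest value was that of 3 g pool 2, at 17.9% of the median of the other 3 g pools for S-Lap1, and the next lowest that of control pool 1. The other S-Lap genes in the table, S-Lap2, S-Lap3, S-Lap4, S-Lap5 and S-Lap8, averaged 44.2 to 457 TPM over the 8 pools. The sperm protein genes don juan (dj) and don juan like (djl) averaged 291 and 97.1 TPM. Fuzzy onions (fzo), which fuses spermatid mitochondria and was singled out after its values were seen, was at 20.3, 44.5, 30.9 and 40.3 TPM in control pools 1 to 4 and 40.3, 8.69, 33.6 and 43.9 TPM in 3 g pools 1 to 4. It was highest in control pool 2 and 3 g pool 4. The S-Lap genes are similar copies, so reads shared between them make each single level uncertain.

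The testis beta-tubulin betaTub85D, which builds the meiotic spindle and the sperm axoneme, was the highest axoneme gene, at 279, 544, 404 and 539 TPM in control pools 1 to 4 and 444, 77.4, 402 and 424 TPM in 3 g pools 1 to 4. The tektin genes, for filament proteins of axonemal microtubules, were at 35.1, 69.7, 50.1 and 71.1 TPM in control pools 1 to 4 and 64.5, 8.16, 52.4 and 49.4 TPM in 3 g pools 1 to 4 for Tektin-A. For Tektin-C they were at 26.6, 55.98, 36.8 and 52.4 TPM in control pools 1 to 4 and 44.99, 6.97, 37.1 and 42.5 TPM in 3 g pools 1 to 4. Dic61B, a dynein intermediate chain, averaged 11.03 TPM over the 8 pools. All 4 were lowest in 3 g pool 2.

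The Y-linked fertility genes kl-2, kl-3 and kl-5, axonemal dynein heavy chains, and Ory, a coiled-coil protein gene, were read at low levels but in every pool. Since only males carry a Y chromosome, their transcripts mark male tissue. For kl-3 the levels were 1.17, 2.31, 1.71 and 2.25 TPM in control pools 1 to 4 and 2, 0.35, 1.94 and 2.1 TPM in 3 g pools 1 to 4. The kl-5 levels were 1.19, 2.18, 1.66 and 2.12 TPM in control pools 1 to 4 and 2.14, 0.28, 1.69 and 2.05 TPM in 3 g pools 1 to 4. Both were highest in control pool 2 and lowest in 3 g pool 2, where kl-5 stood at 13.7% of the median of the other 3 g pools. The kl-2 gene was at 0.75, 1.48, 0.98 and 1.29 TPM in control pools 1 to 4 and 1.43, 0.24, 0.98 and 1.22 TPM in 3 g pools 1 to 4. The Ory gene (now ORY) was at 1.49, 3.08, 2.66 and 3.58 TPM in control pools 1 to 4 and 2.04, 0.42, 2.11 and 2.34 TPM in 3 g pools 1 to 4, highest in control pool 4. The mean of betaTub85D over the 8 pools, 389 TPM, compares with 1.05 to 2.22 TPM for these 4 genes on the same length-corrected scale.

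Genes of sperm chromatin were led by Mst77F, a linker histone-like protein of condensing spermatid nuclei, at 292, 610.2, 436 and 606 TPM in control pools 1 to 4 and 476, 90.7, 447 and 475 TPM in 3 g pools 1 to 4. The protamine genes Mst35Bb and Mst35Ba (now ProtB and ProtA) were at 133, 288, 209 and 287 TPM in control pools 1 to 4 and 224, 47.5, 253 and 212 TPM in 3 g pools 1 to 4 for Mst35Bb. For Mst35Ba the levels were 112, 203, 133 and 231 TPM in control pools 1 to 4 and 171, 31.3, 131 and 165 TPM in 3 g pools 1 to 4. Each of these 3 genes was lowest in 3 g pool 2 and highest in control pool 2 or 4, with overlapping groups. Of the 4 Y-linked copies of Mst77F in the table, Mst77Y-7 was the highest, at 24.2, 47.3, 28.5 and 46.1 TPM in control pools 1 to 4 and 46.7, 7.66, 39.4 and 36.03 TPM in 3 g pools 1 to 4. Mst77Y-13 was at 7.97, 14.4, 17.9 and 20.5 TPM in control pools 1 to 4 and 10.96, 4.67, 14.6 and 16.1 TPM in 3 g pools 1 to 4. Mst77Y-9 was at 4.14, 11.7, 1.03 and 6.85 TPM in control pools 1 to 4 and 9.66, 2.29, 10.6 and 7.05 TPM in 3 g pools 1 to 4. These copies differed in which pool was highest. Mst77Y-4 was listed at 0, 0.33, 2.79 and 0.1 TPM in control pools 1 to 4 and 0, 1.21, 1.14 and 0 TPM in 3 g pools 1 to 4. Of these copies Mst77Y-7 and Mst77Y-13 were lowest in 3 g pool 2, while Mst77Y-9 and Mst77Y-4 were not. The Mst77Y copies are near-identical to one another and similar to Mst77F, and how reads were divided among them is uncertain.

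The Mst genes of the sperm tail, whose short proteins carry repeats of cysteine, glycine and proline (CGP), held the highest member, Mst84Dc. It was at 719.9, 1533, 1189 and 1675 TPM in control pools 1 to 4 and 1184, 188, 1117 and 1018 TPM in 3 g pools 1 to 4. Mst87F was at 546, 1169.5, 905 and 1249 TPM in control pools 1 to 4 and 839, 164, 854 and 816 TPM in 3 g pools 1 to 4. Mst84Db was at 454, 1009, 714 and 1115 TPM in control pools 1 to 4 and 679, 128, 660.2 and 670.2 TPM in 3 g pools 1 to 4. All 3 were highest in control pool 4, then control pool 2, and lowest in 3 g pool 2. Mst84Da, Mst84Dd, Mst98Ca and Mst98Cb averaged 249 to 638 TPM over the 8 pools, with the same highest and lowest pools. The Mst84D genes are similar copies, and their single levels are uncertain.

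Genes of the cup and comet type, which are transcribed in spermatids after meiosis, were at 125, 246, 183 and 257 TPM in control pools 1 to 4 and 188, 45.03, 207 and 209 TPM in 3 g pools 1 to 4 for soti, an inhibitor of a ubiquitin ligase in spermatid individualization. The boly gene was at 51.5, 119, 76.04 and 119 TPM in control pools 1 to 4 and 89.1, 13.4, 73.3 and 83.8 TPM in 3 g pools 1 to 4. For c-cup the levels were 48.3, 99.2, 75.1 and 102 TPM in control pools 1 to 4 and 80.4, 13.9, 75.4 and 80.03 TPM in 3 g pools 1 to 4. The other 8 genes of this type averaged 11.6 to 60.3 TPM. Each of the 11 was lowest in 3 g pool 2 and highest in control pool 2 or 4.

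The genes janus A (janA), janus B (janB) and ocnus (ocn) are related copies, of which janB and ocn belong to the testis while janA is used in both sexes. Levels of ocn were at 387, 837, 591 and 874 TPM in control pools 1 to 4 and 619.9, 99.4, 586 and 598 TPM in 3 g pools 1 to 4. Those of janB were at 167, 374, 275 and 376 TPM in control pools 1 to 4 and 294, 45.2, 257 and 284 TPM in 3 g pools 1 to 4. Those of janA were at 149.9, 173, 159 and 161 TPM in control pools 1 to 4 and 169.8, 98.6, 140.4 and 143 TPM in 3 g pools 1 to 4, a range of 98.6 to 173 TPM. In 3 g pool 2, janA stood at 68.8% of the median of the other 3 g pools, against 16.6% for ocn and 15.9% for janB.

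Among the other Mst genes, Mst33A was at 90.1, 184, 131 and 178 TPM in control pools 1 to 4 and 158, 26.95, 139.8 and 172 TPM in 3 g pools 1 to 4. Mst89B was at 28.3, 59.7, 42.6 and 54.8 TPM in control pools 1 to 4 and 45.8, 7.73, 42.1 and 47.7 TPM in 3 g pools 1 to 4. Mst36Fb was at 23.9, 48.7, 34.8 and 47.8 TPM in control pools 1 to 4 and 38.3, 6.68, 35.3 and 36.7 TPM in 3 g pools 1 to 4. Each was lowest in 3 g pool 2. Mst36Fa averaged 20.8 TPM. Mst85C, singled out after its values were seen, went another way, at 35.4, 25.9, 24.95 and 20 TPM in control pools 1 to 4 and 33.4, 30.8, 24.9 and 20.9 TPM in 3 g pools 1 to 4. It was highest in control pool 1. The accessory gland genes Mst57Db and Mst57Dc were listed at 0 in every pool, and Mst57Da at 0 in all pools but control pool 4, where it read 0.42 TPM. They are expressed in the adult male accessory gland and not in the germline.

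**Figure D1:**
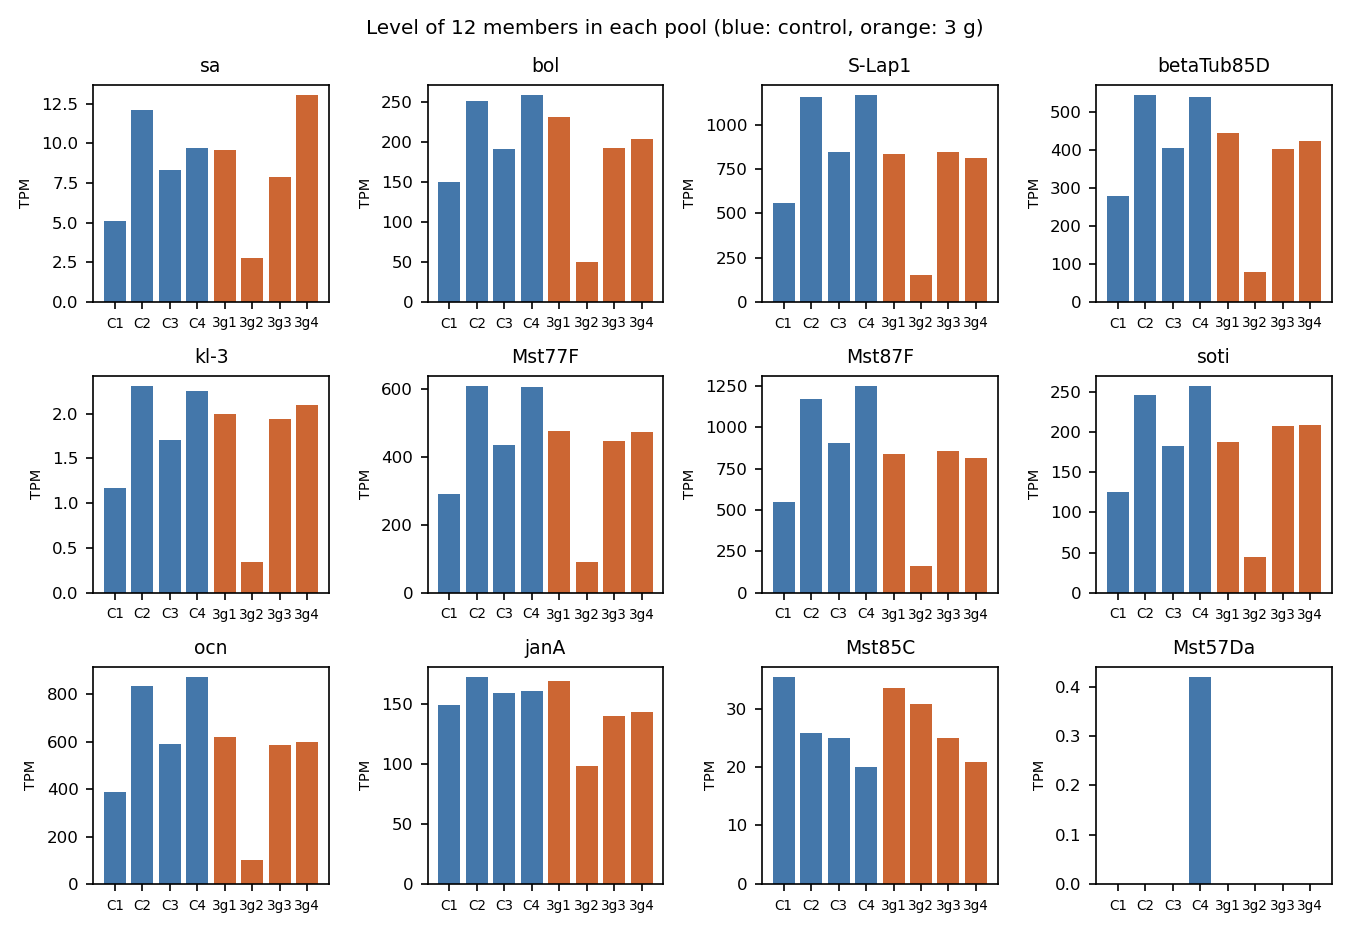
Level in TPM (vertical axes, each from 0 and on its own scale) of 12 members in each of the 8 pools, with control pools (C1 to C4) in blue and 3 g pools in orange, 1 bar per pool. From sa to ocn the lowest bar is 3 g pool 2, janA is nearly level outside that pool, Mst85C does not follow the others, and Mst57Da is at 0 outside control pool 4.

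Most members differed between pools by nearly the same factors. Relative to control pool 1, the median over the 61 tested members was 209% in control pool 2 (middle 50% of members 197% to 217%), 149% in control pool 3 and 206% in control pool 4. At 3 g it was 163%, 28.2%, 149% and 156% in pools 1 to 4, with a middle 50% of 26.1% to 37.5% in pool 2. The lowest level was in 3 g pool 2 for 59 of the 61 members (96.7%, against 31.2% of all 12044 genes tested). The exceptions were Mst77Y-9, lowest in control pool 3, and Mst85C, lowest in control pool 4. The highest level was in control pool 2 or 4 for 54 members (88.5%, against 34.9% of all genes tested).

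Pearson's r between a member's log2 level and the mean deviation of the other tested members over the 8 pools had a median of 0.994, and it was at least 0.95 for 51 of 61 members. The pools are shared by all these values, so r is a description. Without 3 g pool 2, over 7 pools, the median was 0.964 and 37 members reached 0.95. The lowest values over 8 pools were those of Mst85C (-0.49), Mst77Y-9 (0.52) and tomb (0.76). For janA it was 0.92 over 8 pools and 0.51 over 7.

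**Figure D2:**
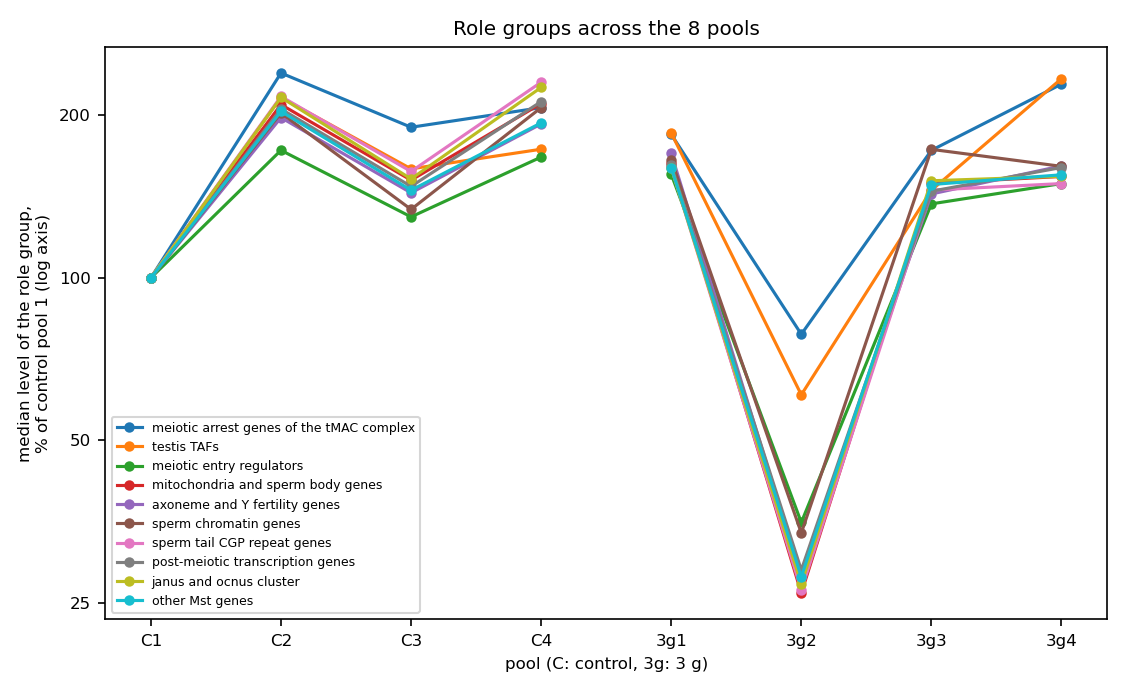
Median level of the members in each of 10 role groups as a percentage of control pool 1 (log axis), for control pools C1 to C4 and 3 g pools 1 to 4. Lines only join the points of a group, since pools have no order. In 3 g pools 2 and 4 the tMAC and TAF genes lie above all other groups, and in control pool 2 the groups range from 172% (meiotic entry) to 239.6% (tMAC).

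The tMAC and TAF genes parted from the CGP repeat and the mitochondrial and sperm body genes in 3 g pools 2 and 4. In 3 g pool 2 the tMAC genes stood at 28.8% to 49.5% of the median of the other 3 g pools and the TAF genes at 29.3% to 44.4%. The CGP repeat genes stood at 14.1% to 19.5% there and the mitochondrial and sperm body genes at 14.6% to 21.6%, so these ranges did not overlap those of the tMAC and TAF genes. The genes transcribed after meiosis had a median of 17.4%, with m-cup, singled out after its values were seen, the highest at 37.5%. The meiotic entry genes bol and twe stood at 24.2% and 23.8% in that pool, and kl-2, kl-3, kl-5 and Ory at 13.7% to 19.9%. The 8 early germline genes averaging 1 TPM or more, described below, stood at 21.6% to 176.7% with a median of 68.3%. The sperm chromatin gene Mst77Y-13, whose reads are divided uncertainly among copies, stood at 32.0%. The parting was thus not one of all early against all late genes. Over all genes tested the median was 92.4%, and 49 of the 61 members were under 25%.

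In 3 g pool 4 the TAF genes had a median of 234% of control pool 1 and the tMAC genes of 229%, while the CGP repeat genes had one of 149.5%. In control pool 4 the order was the reverse, with 173% for the TAF, 207% for the tMAC and 230.4% for the CGP repeat genes. A ratio within a pool is free of the scaling between pools. The summed level of the 7 CGP repeat genes was 147, 158, 162 and 209 times that of the 4 TAF genes in control pools 1 to 4. At 3 g it was 128, 63.2, 154 and 101 times in pools 1 to 4. The ratio was lowest in 3 g pools 2 and 4 and highest in control pool 4, and the groups overlapped through 3 g pool 3, which lay above control pool 1. Against the 4 tMAC genes the ratio was 293, 259, 279 and 354 in control pools 1 to 4. At 3 g that ratio was 266, 118.5, 245.5 and 197 in pools 1 to 4, and 3 g pool 1 lay above control pool 2. Between Mst87F, a CGP repeat gene, and S-Lap1, the ratio was 0.978, 1.01, 1.07 and 1.07 in the controls and 1.01, 1.096, 1.01 and 1.01 at 3 g.

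Genes that follow developmental timing also differed between these pools. The summed level of the 11 Eig71E genes, which ecdysone induces in the prepupal salivary gland, was 128, 122, 454 and 85.96 TPM in control pools 1 to 4 and 13308, 28772, 19445 and 32229.8 TPM in 3 g pools 1 to 4. It was highest in 3 g pools 4 and 2, which had the lowest ratios of CGP repeat to TAF transcripts, and lowest in control pool 4, which had the highest ratio. Other pools did not keep this order: control pool 3 had the highest Eig71E sum of the controls but their next to highest ratio, and 3 g pool 3 had both a higher sum and a higher ratio than 3 g pool 1. The summed level of 5 muscle genes (fln, Act88F, Act79B, TpnC4 and Mlp60A) was 1879, 3532, 2927 and 6679 TPM in control pools 1 to 4 and 1117, 925, 645 and 1036 TPM in 3 g pools 1 to 4, again with control pool 4 apart. All 10 tested Eig71E genes were called higher at 3 g (limma, adjusted p under 0.05), against 2.23% of all genes tested, and 9 without control pool 2. Of the 5 muscle genes 4 were called lower, against 2.06% of all genes tested, but only 1 without control pool 2. Both lists were chosen with earlier results of these data known, so these counts are a description and not a test of the lists. The part of timing in the testis ratios was not tested. Of the single genes, Eig71Eb was at 5.03, 3.54, 3.29 and 3.78 TPM in control pools 1 to 4 and 1606, 3336, 2081 and 3839 TPM in 3 g pools 1 to 4. TpnC4, a troponin C of flight muscle, was at 332, 398, 375 and 736 TPM in control pools 1 to 4 and 60.6, 109, 97.3 and 124 TPM in 3 g pools 1 to 4.

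**Figure D3:**
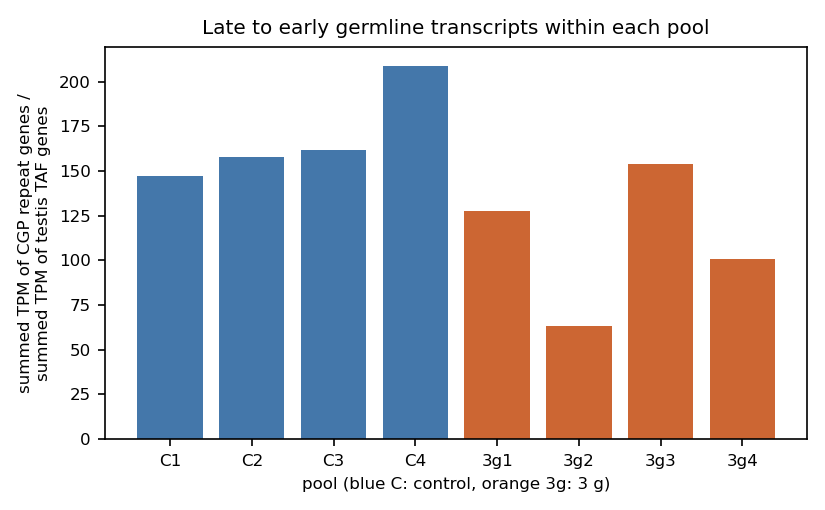
Ratio of the summed TPM of the 7 CGP repeat genes to that of the 4 TAF genes in each pool, 1 bar per pool, with controls (C1 to C4) in blue and 3 g in orange. The controls lie between 147 and 209 and the 3 g pools between 63.2 and 154.

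**Figure D4:**
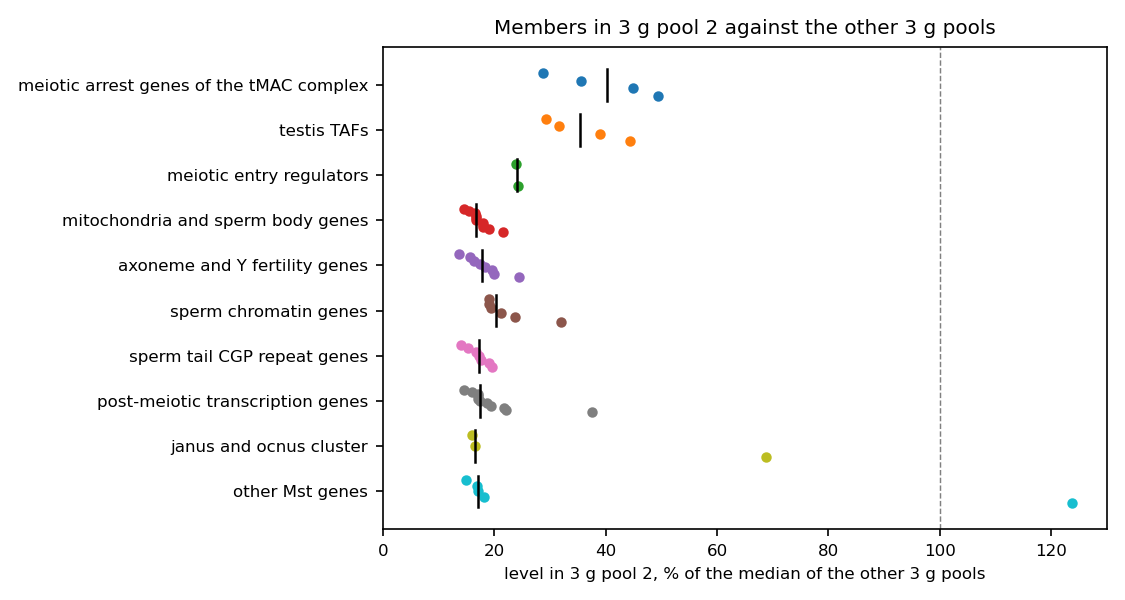
Level of each tested member in 3 g pool 2 as a percentage of the median of the other 3 g pools, 1 point per gene, grouped by role, with the group's median as a black bar and 100% as a dashed line. The tMAC and TAF genes lie between 28.8% and 49.5%, 49 of the 61 members lie under 25%, and janA (68.8%) and Mst85C (124%) stand apart.

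No member passed the test of 3 g against control. Of the 61 tested members 0 were called in either direction (limma on log2 of TPM + 0.5, adjusted p under 0.05), and 0 reached an unadjusted p under 0.05. Among all 12044 genes tested, 4.28% passed, with 2.23% higher at 3 g and 2.06% lower there. Without adjustment 16.3% reached p under 0.05. No member had all 4 pools at 3 g on one side of all controls, against 12.5% of all genes tested (6.00% with the 3 g pools below). Fold changes lay below 0 for 58 of the 61 members, with a median of -0.60 on the log2 scale against -0.02 over all genes tested. S-Lap1 had a mean of 659.9 ± 341 TPM (SD, n = 4) in the 3 g group and 933 ± 290.5 TPM (SD, n = 4) among controls. Its log2 change was -0.72 (standard error 0.58, 95% interval -2.07 to 0.62, limma adjusted p = 0.673). Mst87F had a mean of 668 ± 337 TPM (SD, n = 4) in the 3 g group and 967 ± 317 TPM (SD, n = 4) among controls. Its log2 change was -0.73 (standard error 0.57, 95% interval -2.03 to 0.58, limma adjusted p = 0.666). For betaTub85D it was -0.62 (standard error 0.57, 95% interval -1.94 to 0.69, limma adjusted p = 0.687). The TAF gene sa had a mean of 8.33 ± 4.27 TPM (SD, n = 4) in the 3 g group and 8.803 ± 2.93 TPM (SD, n = 4) among controls. Its log2 change was -0.19 (standard error 0.45, 95% interval -1.22 to 0.85, limma adjusted p = 0.873). Among the Y-linked genes, kl-3 had one of -0.27 (standard error 0.40, 95% interval -1.19 to 0.65, limma adjusted p = 0.791). Ory had the smallest adjusted p of a member, with a log2 change of -0.60 (standard error 0.41, 95% interval -1.55 to 0.34, limma adjusted p = 0.601).

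The 95% intervals were wide. All 61 covered 0, and 55 of them reached below -1, so a 2-fold lower level at 3 g lay within the interval for most members. Without 3 g pool 2 none of the 61 intervals reached below -1, and the lowest bound was -0.90, for Mst84Db. The gene janA, whose pools varied less, had a log2 change of -0.24 (standard error 0.17, 95% interval -0.63 to 0.15, limma adjusted p = 0.614). Mst85C had one of 0.056 (standard error 0.21, 95% interval -0.44 to 0.55, limma adjusted p = 0.924).

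The size of these changes rested on 3 g pool 2. Of the 58 members below 0, 31 stayed below 0 without it and 27 did not. Without that pool, 32 members lay below 0 and 29 above, the median was -0.0046, and 0 passed (limma, 0 at an unadjusted p under 0.05), while 161 genes were called higher and 114 lower among all tested. All 4 tMAC and all 4 TAF genes then lay above 0, at medians of 0.16 and 0.21 on the log2 scale, and all 7 CGP repeat genes below 0, at a median of -0.14. Above 0 was the more common side in that run, with 7301 of all 12045 genes tested and a median of 0.052. For sa the log2 change was 0.23 (standard error 0.30) and for Mst87F -0.14 (standard error 0.28). Without both 3 g pool 2 and control pool 4, a choice made after seeing the data, 54 members lay above 0 and the median was 0.11. Of all 12006 genes tested in that run 6498 lay above 0, with a median of 0.022. The CGP repeat genes then had a median of 0.012, with 5 of 7 above 0.

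**Figure D5:**
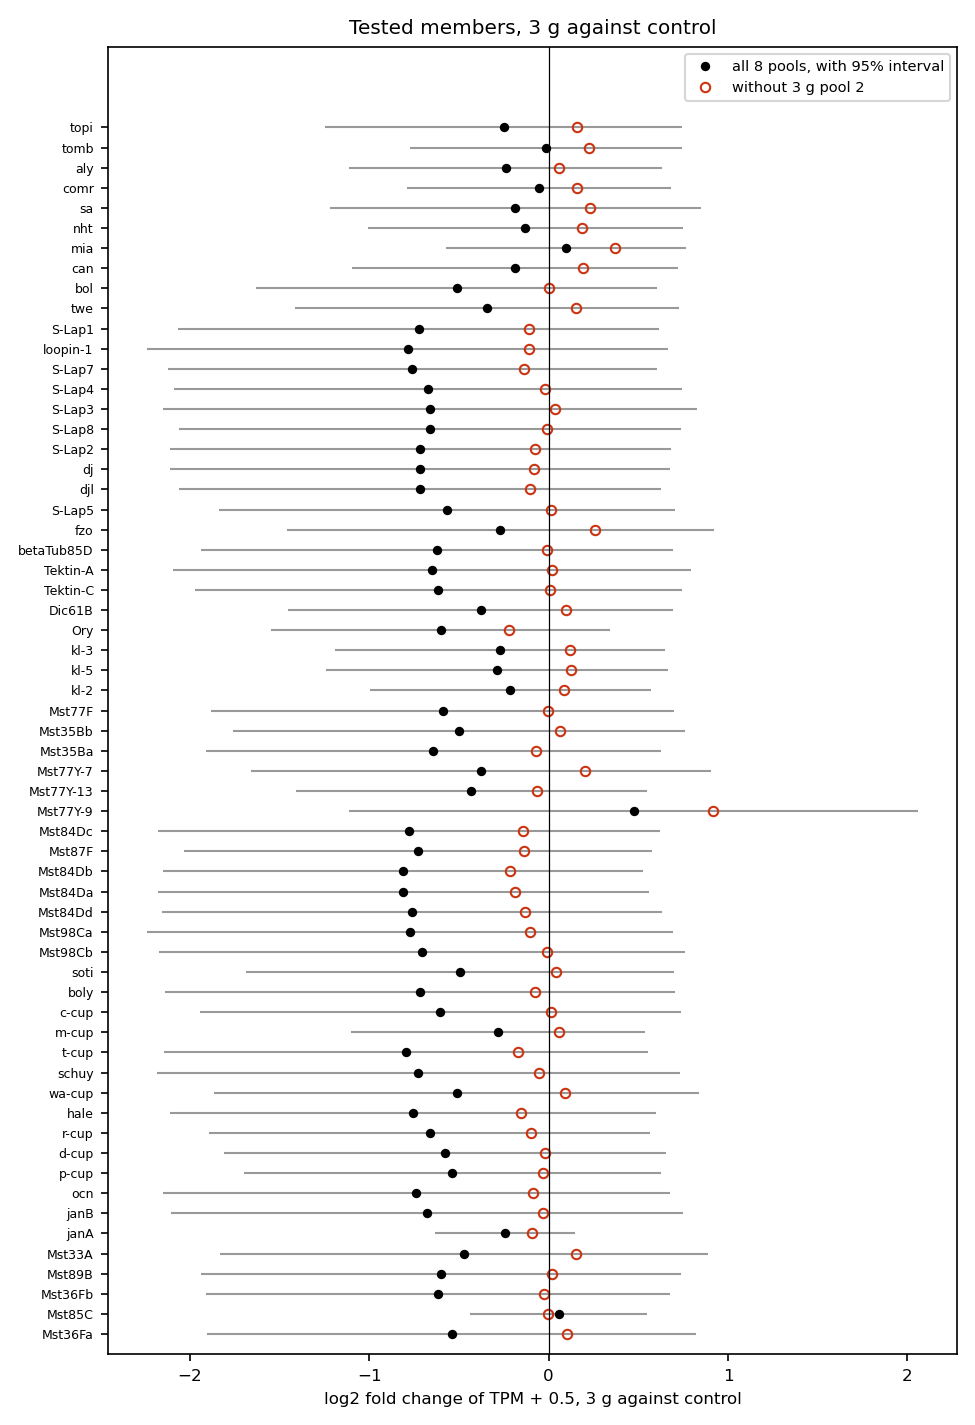
Log2 fold change of TPM + 0.5, 3 g against control, for the 61 tested members in order of role. Black points with grey lines give the value and 95% interval from all 8 pools, and red circles the value without 3 g pool 2. Every interval covers 0, and without that pool the values lie between -0.22 and 0.92.

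Most further testis genes, chosen by known expression but with earlier results of these data known, varied with the members. Of 29, 22 had an r of at least 0.9 with the members' mean over the 8 pools. The lowest r of the 29 was -0.23. Among all 10226 non-member genes averaging 5 TPM or more, 19.3% reached 0.9. Of the 30 further testis genes, 29 were tested, with 0 called (limma, 0 at an unadjusted p under 0.05), and 28 lay below 0 with a median log2 change of -0.35. Without 3 g pool 2, 6 lay below 0 and 23 above, with a median of 0.083. For this list and those below, the shares over all 12044 genes tested were 4.28% called and 16.3% at an unadjusted p under 0.05 (limma). With all pools 6363 of these genes lay below 0, and 7301 of 12045 lay above 0 without 3 g pool 2. The summed level of the further testis genes was 1108, 2130.3, 1546 and 2041 TPM in control pools 1 to 4 and 1704, 395, 1612 and 1743 TPM in 3 g pools 1 to 4. The pools stood in nearly the order of the members, with 3 g pool 2 lowest and control pool 2 highest. The most abundant were tHMG2 and tHMG1, HMG-box proteins of spermatid chromatin, listed as CG7046 and CG7045. The gene tHMG2 was at 203, 346, 263 and 330.5 TPM in control pools 1 to 4 and 269.9, 58.2, 286 and 278 TPM in 3 g pools 1 to 4.

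The 14 testis copies of proteasome subunits summed to 278, 588, 409.8 and 543 TPM in control pools 1 to 4 and 439, 104, 423 and 487 TPM in 3 g pools 1 to 4. All 14 were tested, 0 were called (limma, 0 at an unadjusted p under 0.05), and all lay below 0 with a median of -0.43. Without 3 g pool 2, 5 lay below 0 and 9 above, with a median of 0.054. Prosbeta4R2 was at 41.1, 93.8, 61.01 and 84.4 TPM in control pools 1 to 4 and 71.6, 11.9, 68.2 and 71.3 TPM in 3 g pools 1 to 4. Prosbeta5R1 was at 40.9, 74.9, 54 and 70.99 TPM in control pools 1 to 4 and 60.4, 8.54, 55.3 and 57.95 TPM in 3 g pools 1 to 4. In 3 g pool 2 these genes stood at 14.7% to 37.9% of the median of the other 3 g pools.

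The 8 other Y-linked genes summed to 26.4, 57.4, 39.3 and 52.2 TPM in control pools 1 to 4 and 46.4, 7.8, 39.3 and 43.7 TPM in 3 g pools 1 to 4. Of 7 tested, 0 were called (limma, 0 at an unadjusted p under 0.05), and the median log2 change was -0.53. Without 3 g pool 2 it was 0.0077, with 5 of the 7 above 0. ARY was at 7.01, 18.8, 12.98 and 16.4 TPM in control pools 1 to 4 and 14.5, 2.75, 12.3 and 14.7 TPM in 3 g pools 1 to 4. Pp1-Y2, a protein phosphatase gene, was at 5.57, 9.29, 6.36 and 10.4 TPM in control pools 1 to 4 and 9.74, 1.12, 7.33 and 7.3 TPM in 3 g pools 1 to 4. As for kl-2, kl-3 and kl-5, 3 g pool 2 was lowest and control pool 2 or 4 highest for ARY and Pp1-Y2. Pp1-Y1 was highest in control pool 3, at 2.51 TPM.

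Genes of the early germline and of the somatic gonad followed the pools less closely or not at all. The 10 early germline genes summed to 49.7, 61.9, 47.2 and 42.5 TPM in control pools 1 to 4 and 66.3, 30.4, 46.7 and 48.8 TPM in 3 g pools 1 to 4. Of the 8 tested, 0 were called (limma, 0 at an unadjusted p under 0.05). The gene bgcn, which acts with bam to start germ cell differentiation, was at 4.91, 10.6, 6.44 and 8.03 TPM in control pools 1 to 4 and 8.3, 1.79, 7.6 and 9.19 TPM in 3 g pools 1 to 4, lowest in 3 g pool 2 and highest in control pool 2. The gene ovo, a germline transcription factor also used in the epidermis, was at 29.1, 29.4, 22.8 and 16.6 TPM in control pools 1 to 4 and 37.1, 16.6, 22.3 and 18.5 TPM in 3 g pools 1 to 4, and was highest in 3 g pool 1. The 5 somatic gonad genes, which other tissues also express, summed to 46.4 to 73.7 TPM over the 8 pools, with 0 of 5 called (limma, 0 at an unadjusted p under 0.05). Among them hh was at 32.4, 22.2, 20.6 and 15.04 TPM in control pools 1 to 4 and 26.6, 23.5, 21.6 and 18.6 TPM in 3 g pools 1 to 4. For zfh1 the levels were 26.3, 20.6, 24.5 and 17.4 TPM in control pools 1 to 4 and 22.8, 21.2, 21.98 and 21.4 TPM in 3 g pools 1 to 4, and 3 g pool 2 was not the lowest for either gene.

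Accessory gland and female genes were low. Of 21 accessory gland genes 4 were tested, with 0 called (limma, 0 at an unadjusted p under 0.05), and the sex peptide gene SP and Acp33A were listed at 0 in every pool. The highest, Acp95EF, was at 21.2, 32.4, 25.1 and 13.6 TPM in control pools 1 to 4 and 15.2, 3.19, 27.4 and 32.9 TPM in 3 g pools 1 to 4, lowest in 3 g pool 2. Acp32CD was at 5.97, 7.35, 8.32 and 8.58 TPM in control pools 1 to 4 and 11.6, 4.52, 6.96 and 4.75 TPM in 3 g pools 1 to 4. Of 10 female genes, for yolk, egg shell and related proteins, 4 were tested and 0 called (limma, 0 at an unadjusted p under 0.05). The yolk protein gene Yp3 was at 12.6, 7.59, 13.6 and 6.77 TPM in control pools 1 to 4 and 9.93, 8.55, 6.66 and 6.3 TPM in 3 g pools 1 to 4. The gene fit, of the female fat body, was at 1.39, 1.94, 5.45 and 3.3 TPM in control pools 1 to 4 and 0.92, 3.92, 4.01 and 0.17 TPM in 3 g pools 1 to 4. Neither was lowest in 3 g pool 2. The chorion gene Cp15, named after its values were seen, was at 1.11, 2.83, 2.57 and 2.43 TPM in control pools 1 to 4 and 2.18, 0.14, 3.2 and 0.53 TPM in 3 g pools 1 to 4, lowest in 3 g pool 2.

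A large share of the transcriptome varied between pools as the testis members did. Of 10226 other genes averaging 5 TPM or more, 1711 (16.7%) had a Pearson r of at least 0.95 with the mean log2 deviation of the tested members over the 8 pools, and 980 of them also reached it over 7 pools without 3 g pool 2. These values are a description, since all genes share the pools. With the 65 members, the 1711 genes took 7.32%, 14.6%, 10.8% and 14.7% of all TPM in control pools 1 to 4, and 11.6%, 2.45%, 10.8% and 11.2% in 3 g pools 1 to 4. The 1711 genes were picked for their likeness to the members over the same pools, so the pattern of these shares follows from that choice. All remaining genes shared 85.3% of the TPM in control pool 4 and 97.6% in 3 g pool 2, since TPM is a share of each library.

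The 10 other genes most like the members, with r between 0.9993 and 0.9998 over the 8 pools, were CG3222, CG42556, CG14861, CG12693, CG31161, CG30039, CG7856, robl62A, CG3964 (now TTLL4B) and CG30177. CG3222 was at 46.1, 98.7, 68.1 and 95.8 TPM in control pools 1 to 4 and 78.6, 14.97, 71.6 and 75.7 TPM in 3 g pools 1 to 4. The gene robl62A, of the roadblock family of dynein light chains, was at 223, 496, 341 and 462 TPM in control pools 1 to 4 and 372, 63.6, 333 and 379 TPM in 3 g pools 1 to 4. Over the 7 pools without 3 g pool 2, r for these 10 genes was between 0.996 and 0.999.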

How the data were processed

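RNA of whole pupae was sequenced, per the labels' protocols, as paired ends of polyadenylated libraries in 1 lane. The tools in the submitters' processing notes, which give no role or order, were eXpress 1.5.1, Bowtie2 2.1.0, Trimmomatic 0.30, DESeq and CASAVA. For build, annotation and strand setting, nothing is stated in the sources used. The authors deposited 1 whole number per gene and library, a score taken to be TPM multiplied by 100 and rounded, from the table's name and because each of the 8 libraries sums to 1000000 after division by 100, within rounding. Whether a further scaling was applied is not stated, and depth is unknown.

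Genes averaging 1 TPM or more were tested with limma 3.58.1 in R 4.3.3 on log2(TPM + 0.5), with an intensity trend, no covariate and Benjamini-Hochberg adjustment over all 12044 genes, at a threshold of 0.05. Such fold changes understate those of low genes. The sums, ratios and figures were made with pandas 2.3.3 and matplotlib 3.10.9 in Python 3.11.15. Members and lists were matched by symbol or RefSeq synonym, and were chosen with earlier results of these data known. Named in full were the 3 members of highest mean in each role group, both members of any pair of Y-linked genes whose means differed by more than 8-fold, and Mst85C, m-cup and fzo after their values were seen. Of other lists, up to 4 genes past the threshold or the 2 of highest mean were eligible. Alternatives are listed in the closing section. No sequence or position is given.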

Additional observations from a re-analysis of the deposited data

Results flagged for a closer look

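The 152 series of 4 pools that were examined were of 3 g pools or of control pools, and only the former include 3 g pool 2. In 29 series of 3 g pools, the level in 3 g pool 2 lay far below the other 3 g pools. Its gap to the next value, as a share of the whole range of the 4, passed Dixon's 95% critical value. Chance passes about 1 series in 20, and the members vary together, so these are not separate observations. The share of the range was 0.831 for topi, 0.916 for aly and 0.862 for twe. For sperm body and axoneme genes it was 0.951 (S-Lap1), 0.919 (loopin-1), 0.901 (S-Lap7), 0.885 (betaTub85D), 0.909 (kl-3) and 0.844 (Ory). It was 0.926 for Mst77F, 0.834 for Mst84Dc, 0.944 for Mst87F, 0.966 for Mst84Db, 0.859 for Mst89B and 0.904 for Mst36Fb. Genes transcribed after meiosis and the janus cluster gave 0.871 (soti), 0.925 (c-cup), 0.935 (ocn) and 0.852 (janB). Outside the members it was 0.928 for tHMG2 (CG7046), 0.944 for Prosbeta4R2 and 0.901 for Prosbeta5R1.

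The summed levels of whole role groups gave 0.911 for mitochondria and sperm body, 0.866 for axoneme and Y fertility genes, 0.946 for sperm chromatin, 0.921 for CGP repeat genes, 0.918 for genes transcribed after meiosis, 0.881 for the janus cluster and 0.845 for other Mst genes, each with 3 g pool 2 lowest. The summed levels of tMAC, TAF and meiotic entry genes did not pass. Among the controls, Mst57Da and the summed Mst57D genes, each at 0 outside control pool 4, gave 1.0, Mst77Y-4 in control pool 3 gave 0.882 and the muscle gene TpnC4 in control pool 4 gave 0.836.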

How the results depend on the processing

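Members and further testis genes called higher or lower numbered 0 under every alternative run, namely other pseudocounts (0.1, 1), testing every gene, a 5 TPM minimum, rescaling by median of ratios, quantile normalization, a replicate block and leaving out each library (limma, 0 members at an unadjusted p under 0.05 in each). Of the further testis genes, 1 reached an unadjusted p under 0.05 (limma) with median-of-ratios rescaling and 1 without control pool 4. So did 1 without both 3 g pool 2 and control pool 4. Among all genes tested, 268 were called higher and 248 lower. With the replicate block these were 87 and 60, without 1 library 112 to 248 and 50 to 245 (both lowest without control pool 2, then control pool 3, at 141 and 65; 161 and 114 without 3 g pool 2), and without both 3 g pool 2 and control pool 4 108 and 120. Deviations of same-numbered pools had an r of -0.38, -0.52, 0.06 and 0.08, and the best partner had another number for controls 1 to 4. Whether same-numbered pools were handled together is not stated, and an r between levels cannot decide it. The log2 change of tomb was 0.035 with quantile normalization against -0.01. Without 3 g pool 2 the sign turned in 28 of the 61 tested members. Among the members named in full, none of them called, 23 turned with some library left out, over ranges of -0.47 to 0.16 (topi), -0.22 to 0.23 (tomb), -0.51 to 0.060 (aly), -0.45 to 0.23 (sa), -0.38 to 0.18 (nht), -0.086 to 0.37 (mia), -0.73 to 0.0047 (bol), -0.53 to 0.15 (twe), -0.95 to 0.019 (Tektin-A), -0.86 to 0.0077 (Tektin-C), -0.74 to 0.066 (Mst35Bb), -0.71 to 0.042 (soti), -0.83 to 0.011 (c-cup), -0.73 to 0.15 (Mst33A), -0.83 to 0.017 (Mst89B), -0.33 to 0.087 (kl-2), -0.43 to 0.12 (kl-3), -0.46 to 0.12 (kl-5), -0.64 to 0.21 (Mst77Y-7), -0.097 to 0.92 (Mst77Y-9), -0.067 to 0.20 (Mst85C), -0.46 to 0.060 (m-cup) and -0.50 to 0.26 (fzo). For 21 of these 23 named members leaving out 3 g pool 2 did so, and the cause was not tested. Depth is unknown, so what it limits cannot be stated.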
